A study of Mus musculus with 16 samples.

Results

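The genes described are 10 genes of neutrophils, chosen by symbol from the deposited array table: the calprotectin pair S100a8 and S100a9, the metalloproteinases Mmp8 and Mmp9, the C-type lectin Clec4d, the stefin Stfa2l1, and the granule genes Ltf, Camp, Ngp and Lcn2. All 10 were measured, among 17097 genes with a probe set of their own. Of several probe sets for a gene the brightest on average was used, a choice that arose among the 10 for Mmp9 alone, with 2 probe sets. Each of the 16 arrays held the RNA of 1 subcutaneous tumour of Hepa1-6, a hepatocellular carcinoma line of the mouse, in the flank of male C57BL/6 mice implanted at 5 weeks of age. The Combination group (n = 4) received cabozantinib, an oral multikinase inhibitor, at 30 mg/kg daily together with the hamster anti-mouse PD-1 antibody J43, 5 injections of 10 mg/kg at intervals of 3 days. The Cabozantinib group (n = 5) received the inhibitor alone at that dose, the AntiPD1 group (n = 3) the antibody alone on that schedule, and the Placebo group (n = 4) hamster IgG at the antibody's dose and schedule. The labels do not say whether Cabozantinib mice were given IgG as well. Treatment began at a tumour volume of 200 to 300 cubic mm, tumours were taken on day 14, and all 4 groups share the implanted line, the Matrigel carrier and the skin site, so the model lacks the liver's own tissue. The series title speaks of a neutrophil response to the drugs, and the comparisons below ask in which groups and tumours genes of that cell type were high.

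Neutrophils build their granules in sequence as they mature in bone marrow. Azurophil granules with myeloperoxidase and elastase are filled first, at the promyelocyte stage. Specific granules with lactoferrin (Ltf), the cathelicidin precursor (Camp), neutrophilic granule protein (Ngp) and lipocalin 2 (Lcn2) follow in myelocytes and metamyelocytes, and gelatinase granules with Mmp9 come later. Transcripts of the specific granule proteins are largely shut off before the cell leaves the marrow, whereas S100a8, S100a9 and several surface receptors are transcribed in circulating cells too. On that background Ltf, Camp, Ngp and Lcn2 were taken as the immature class and S100a8, S100a9, Mmp8, Mmp9, Clec4d and Stfa2l1 as the mature class. Mmp8 protein is stored in specific granules, so its class is the least certain. Several of these genes are also transcribed outside neutrophils: S100a8 and S100a9 in monocytes and stressed keratinocytes, Clec4d in monocytes and macrophages, Mmp9 in macrophages and osteoclasts, and Lcn2 in injured epithelium and hepatocytes.

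The promoters of the calprotectin pair and of 3 granule genes are shown because these are the groups of genes whose levels followed each other most closely below. RefSeq (GRCm38.p6) gave windows from 250 bases before to 50 bases after the annotated start for 9 of the 10 genes. S100a8 and S100a9 are adjacent on chromosome 3, with 0 annotated genes between them, and Camp, Ngp and Ltf lie along chromosome 9. Capitals mark TTGCNNAA, a C/EBP-type motif, GAGGAAG, a PU.1-type motif, and TATAAA, each searched on both strands; the marked matches do not overlap. C/EBP factors and PU.1 are the best known transcription factors of the granulocyte lineage.
S100a8 promoter (chr3:90668821-90669120, plus strand): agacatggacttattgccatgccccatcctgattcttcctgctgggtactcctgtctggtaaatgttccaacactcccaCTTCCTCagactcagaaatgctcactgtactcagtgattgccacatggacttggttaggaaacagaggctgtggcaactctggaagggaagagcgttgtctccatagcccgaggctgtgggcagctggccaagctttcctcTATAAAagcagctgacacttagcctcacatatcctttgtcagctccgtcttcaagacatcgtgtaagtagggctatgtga
S100a9 promoter (chr3:90695672-90695971, minus strand): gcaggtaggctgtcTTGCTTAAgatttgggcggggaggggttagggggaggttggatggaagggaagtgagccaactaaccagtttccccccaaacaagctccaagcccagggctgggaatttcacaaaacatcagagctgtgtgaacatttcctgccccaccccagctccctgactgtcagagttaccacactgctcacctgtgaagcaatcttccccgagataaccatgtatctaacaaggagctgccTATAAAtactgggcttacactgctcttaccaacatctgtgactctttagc
Camp promoter (chr9:109849407-109849706, minus strand): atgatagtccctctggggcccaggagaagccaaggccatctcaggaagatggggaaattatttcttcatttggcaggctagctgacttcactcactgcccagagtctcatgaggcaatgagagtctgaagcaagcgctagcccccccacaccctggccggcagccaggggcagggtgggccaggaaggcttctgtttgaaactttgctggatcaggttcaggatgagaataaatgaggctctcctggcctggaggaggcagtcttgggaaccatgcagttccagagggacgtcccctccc
Ngp promoter (chr9:110419558-110419857, plus strand): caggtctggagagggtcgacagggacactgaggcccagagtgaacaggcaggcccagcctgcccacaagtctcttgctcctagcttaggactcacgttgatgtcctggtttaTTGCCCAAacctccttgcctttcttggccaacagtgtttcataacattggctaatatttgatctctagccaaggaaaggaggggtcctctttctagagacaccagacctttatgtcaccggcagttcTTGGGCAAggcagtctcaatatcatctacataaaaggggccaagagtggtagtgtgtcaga
Ltf promoter (chr9:111019042-111019341, plus strand): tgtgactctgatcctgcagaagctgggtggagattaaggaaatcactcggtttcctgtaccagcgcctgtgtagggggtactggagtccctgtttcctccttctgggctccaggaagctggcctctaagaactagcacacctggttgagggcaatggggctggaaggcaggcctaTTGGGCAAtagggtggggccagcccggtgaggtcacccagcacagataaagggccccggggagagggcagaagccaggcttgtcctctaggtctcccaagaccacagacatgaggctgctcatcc

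The C/EBP-type letters were found in 5 of the 9 windows (S100a9, Mmp8, Ltf, Lcn2 and, at 2 places, Ngp), and in 10.8% of all 32851 RefSeq promoter windows of the same length. The PU.1-type letters were found in 4 of 9 (S100a8, Mmp8, Clec4d and Lcn2) against 13.6% of all windows. TATAAA was found in 3 of 9 (S100a8, S100a9 and Mmp8), also against 13.6% of all windows. The S100a8 match began 30 bases before the annotated start and the S100a9 match at the start itself. The Mmp8 match began 3 bases before the start and was on the opposite strand. The Camp and Stfa2l1 windows held none of the 3. These matches describe letters in a short window and say nothing about whether a factor binds there.

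Across the whole series, array medians lay between 4.92 and 5.13 on the deposited log2 scale. Group means under 4.92, the lowest of these medians, may be background, and differences against such a mean are limited by it. The labelled cells were present in all 16 tumours, with Alb between 12.84 and 13.20 and Afp between 12.41 and 12.78. Skeletal muscle markers stood apart in Combination replicate 4, Cabozantinib replicate 4 and AntiPD1 replicate 2, with mean log2 signals of 12.43, 11.33 and 11.74. Replicate numbers only name the tumours, and with 3 to 5 arrays a group, the number of arrays limits precision throughout. Every test was limma's moderated test on all 16 arrays, with p-values adjusted by Benjamini-Hochberg over 17097 genes within each comparison and a threshold of 0.05.

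**Figure D1:**
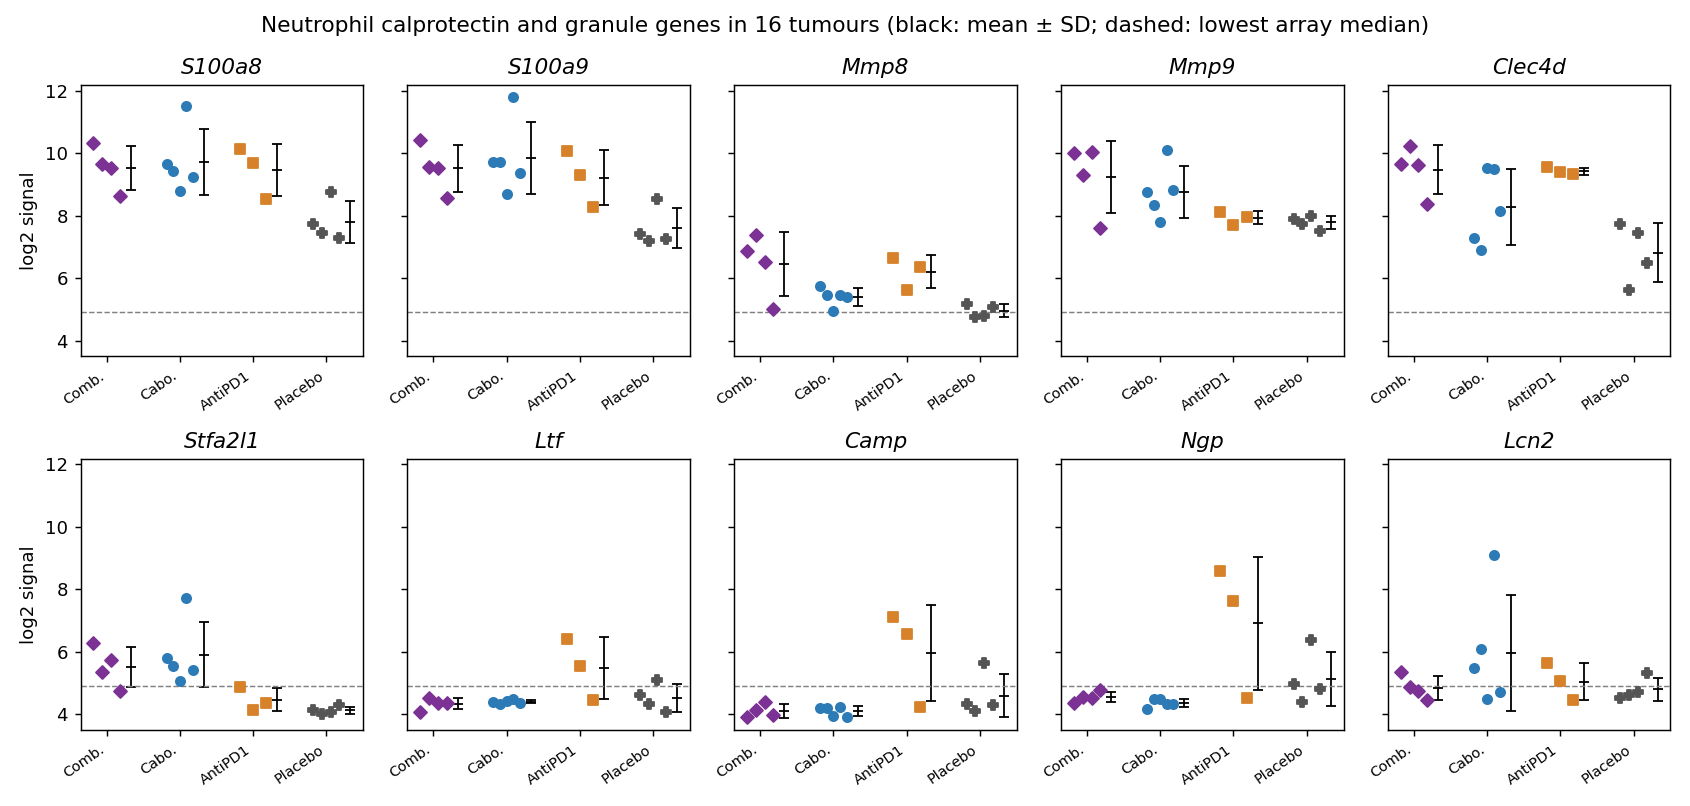
Log2 signal of the 10 genes (1 panel each) in the 16 tumours, with 1 point per tumour, groups on the x axis in the order Combination, Cabozantinib, AntiPD1 and Placebo, black marks for the group mean ± SD and a dashed line at the lowest array median, 4.92. Ltf, Camp and Ngp are under the line in all 9 cabozantinib-treated tumours and above it in AntiPD1 replicates 1 and 2 and Placebo replicate 3.

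S100a8 and S100a9 encode the 2 subunits of calprotectin, a calcium- and zinc-binding protein that makes up much of the neutrophil cytosol. S100a8 had log2 signals of 10.33, 9.66, 9.53 and 8.62 in Combination tumours, 9.66, 9.42, 8.79, 11.51 and 9.23 in Cabozantinib, 10.15, 9.70 and 8.52 in AntiPD1, and 7.73, 7.43, 8.76 and 7.28 in Placebo. S100a9 had 10.42, 9.54, 9.54 and 8.57 in Combination, 9.72, 9.70, 8.70, 11.79 and 9.35 in Cabozantinib, 10.06, 9.29 and 8.29 in AntiPD1, and 7.40, 7.18, 8.54 and 7.25 in Placebo. For both genes Placebo had the lowest group mean, Placebo replicate 3 was the highest of its group, and Cabozantinib replicate 4 was the highest of all 16 tumours. Every Cabozantinib tumour lay above every Placebo tumour for both genes, as was so for 1.97% of all genes. The Combination group overlapped Placebo for S100a8 only (8.62 in Combination replicate 4 against 8.76 in Placebo replicate 3). Combination did not overlap Placebo in that direction for 7.94% of all genes.

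The calprotectin differences from Placebo were large and lay near the threshold in Combination against Placebo, above it in the fit on all 16 arrays. In Combination against Placebo, S100a9 differed by 1.92 ± 0.59 on the log2 scale (SE; limma adjusted p = 0.0504) and S100a8 by 1.73 ± 0.55 (adjusted p = 0.0569). In Cabozantinib against Placebo the differences were 2.26 ± 0.56 for S100a9 (adjusted p = 0.105) and 1.92 ± 0.52 for S100a8 (adjusted p = 0.136). In AntiPD1 against Placebo they were 1.62 for S100a9 (adjusted p = 0.200) and 1.66 for S100a8 (adjusted p = 0.177). Over 26 alternative fits S100a9 was called in 9 and S100a8 in 7 in Combination against Placebo. Among these, leaving out Combination replicate 4 gave 2.24 for S100a9 (adjusted p = 0.0439) and 2.04 for S100a8 (adjusted p = 0.0472), and leaving out Cabozantinib replicate 4, which enters only through the shared spread, gave adjusted p = 0.0250 and 0.0280. Leaving out other tumours raised the adjusted p to as much as 0.137 for S100a9 and 0.151 for S100a8. Without Cabozantinib replicate 4, the Cabozantinib differences were 1.78 for S100a9 (adjusted p = 0.108) and 1.47 for S100a8 (adjusted p = 0.164). The order of the group means was Cabozantinib, Combination, AntiPD1 and Placebo for both genes. The steps between the 3 treated groups were at most 0.34, smaller than the SD within each of them (0.70 to 1.16), so those neighbours did not differ beyond their spread. In these bulk samples, fewer cells of a type and less RNA per cell cannot be told apart.

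Clec4d, a receptor of myeloid cells for mycobacterial glycolipids, had the largest difference of the 10 genes. Its log2 signal was 9.64, 10.24, 9.62 and 8.38 in Combination, 7.29, 6.89, 9.53, 9.49 and 8.15 in Cabozantinib, 9.55, 9.40 and 9.32 in AntiPD1, and 7.72, 5.63, 7.43 and 6.47 in Placebo. All Combination and all AntiPD1 tumours lay above every Placebo tumour. Groups did not overlap in that direction for 7.94% of all genes in Combination and 9.22% in AntiPD1 against Placebo. The 3 AntiPD1 tumours had an SD of 0.12. Of the Cabozantinib tumours 2 lay in the Placebo range, 2 among the Combination and AntiPD1 tumours and 1, with 8.15, between the ranges. Clec4d rose 6.30-fold in Combination against Placebo, a log2 difference of 2.66 ± 0.60 (SE; limma adjusted p = 0.0219). In AntiPD1 against Placebo its difference was of like size, 2.61 ± 0.65 (adjusted p = 0.127), and in Cabozantinib against Placebo it was 1.46 (adjusted p = 0.298). Of the 10 genes, Clec4d alone passed the test over all 4 groups (limma F, adjusted p = 0.0422, where 6.77% of all genes passed), with 62.9% of its variance lying between groups. The Combination call was lost without Placebo replicate 2, Placebo replicate 4 or Combination replicate 2, with adjusted p = 0.0726, 0.0635 and 0.0872.

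Mmp8, the neutrophil collagenase, was the other gene called in Combination against Placebo. Its log2 signal was 6.88, 7.38, 6.53 and 5.01 in Combination, 5.75, 5.45, 4.94, 5.46 and 5.41 in Cabozantinib, 6.63, 5.61 and 6.36 in AntiPD1, and 5.18, 4.75, 4.80 and 5.07 in Placebo. Combination replicate 4, one of the tumours high in muscle genes, lay within the Placebo range, and the other 3 Combination tumours lay above all Placebo tumours. Mmp8 rose 2.82-fold in Combination against Placebo, by 1.50 ± 0.38 (SE; limma adjusted p = 0.0314), and without Combination replicate 4 the difference was 1.98 (adjusted p = 0.00545). The call was lost without any 1 of Placebo replicates 2, 3 and 4 or Combination replicates 1, 2 and 3, with adjusted p between 0.0543 and 0.114. A fit on these 2 groups alone gave adjusted p = 0.0540, and the two-sided exact permutation test p = 0.0857, where the smallest possible p is 0.0286. In AntiPD1 against Placebo Mmp8 differed by 1.24 (adjusted p = 0.161), with 3 of 3 AntiPD1 tumours above every Placebo tumour (9.22% of all genes had groups that did not overlap in that direction), and in Cabozantinib against Placebo by 0.45 (adjusted p = 0.665).

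Mmp9, gelatinase B, had log2 signals of 10.01, 9.30, 10.03 and 7.59 in Combination, 8.74, 8.35, 7.80, 10.09 and 8.81 in Cabozantinib, 8.13, 7.71 and 7.95 in AntiPD1, and 7.90, 7.73, 7.99 and 7.52 in Placebo. Of the 9 tumours given cabozantinib, 7 were above every AntiPD1 and every Placebo tumour, and the exceptions were Combination replicate 4 and Cabozantinib replicate 3. Mmp9 differed by 1.45 ± 0.49 in Combination against Placebo (SE; limma adjusted p = 0.0722). Its other probe set, in a fit over all probe sets, differed by 1.60 ± 0.46 (adjusted p = 0.0497), so the call depended on the probe set. Without Combination replicate 4 the difference was 1.99 (adjusted p = 0.0157), and without Cabozantinib replicate 4, which enters only through the shared spread, it was 1.45 (adjusted p = 0.0451), so the call also depended on these tumours. Mmp9 in Cabozantinib against Placebo differed by 0.97 (adjusted p = 0.404), and by 0.64 without Cabozantinib replicate 4 (adjusted p = 0.587). AntiPD1 against Placebo gave 0.14 (95% interval from -0.998 to 1.28).

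Stfa2l1, a stefin-type cysteine protease inhibitor of the cluster that mouse neutrophils express, was high in the tumours given cabozantinib. Its log2 signal was 6.28, 5.35, 5.73 and 4.73 in Combination, 5.79, 5.55, 5.06, 7.71 and 5.43 in Cabozantinib, 4.87, 4.15 and 4.37 in AntiPD1, and 4.13, 3.998, 4.09 and 4.29 in Placebo. Every tumour given cabozantinib lay above every Placebo tumour, and 1 of the 9, Combination replicate 4, was under the highest AntiPD1 tumour. Groups did not overlap in that direction for 7.94% of all genes in Combination and 1.97% in Cabozantinib against Placebo. The AntiPD1 and Placebo means, 4.47 and 4.13, were under every array median, so the size of the differences is limited by background. Stfa2l1 rose by 1.42 ± 0.33 for cabozantinib averaged over the antibody (SE; limma adjusted p = 0.0382), the only one of the 10 genes called there, where 0.860% of all genes were called higher and 1.26% lower. That call was lost on leaving out any 1 of 11 of the 16 tumours, all but Cabozantinib replicates 2 to 5 and Combination replicate 4, with adjusted p of up to 0.108. The share of all genes called higher in those fits lay between 0.298% and 1.12%. The pairwise differences from Placebo were 1.39 ± 0.45 in Combination (adjusted p = 0.0622) and 1.78 ± 0.43 in Cabozantinib (adjusted p = 0.102). The Combination difference was called without Combination replicate 4 (1.66, adjusted p = 0.0491) or without Cabozantinib replicate 4 (1.39, adjusted p = 0.0164), whereas the Cabozantinib difference without Cabozantinib replicate 4 was 1.33 (adjusted p = 0.0609).

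Ltf, Camp and Ngp behaved differently from the genes above. Ngp, a granule protein of the cystatin family, had log2 signals of 4.37, 4.55, 4.52 and 4.77 in Combination, 4.17, 4.49, 4.49, 4.32 and 4.33 in Cabozantinib, 8.58, 7.64 and 4.52 in AntiPD1, and 4.96, 4.40, 6.38 and 4.82 in Placebo. Camp, the precursor of the antimicrobial peptide CRAMP, had 3.91, 4.15, 4.40 and 3.99 in Combination, 4.21, 4.20, 3.94, 4.22 and 3.92 in Cabozantinib, 7.13, 6.56 and 4.23 in AntiPD1, and 4.35, 4.12, 5.63 and 4.29 in Placebo. Ltf, which encodes the iron-binding protein lactoferrin, had 4.09, 4.52, 4.37 and 4.37 in Combination, 4.39, 4.34, 4.42, 4.49 and 4.37 in Cabozantinib, 6.42, 5.56 and 4.45 in AntiPD1, and 4.61, 4.32, 5.11 and 4.06 in Placebo. The same 3 tumours, AntiPD1 replicates 1 and 2 and Placebo replicate 3, were high for all 3 genes. All 9 tumours given cabozantinib were under the lowest array median for each of them, including Cabozantinib replicate 4, which had the highest S100a8 and S100a9 signals of the series.

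In Cabozantinib against AntiPD1, Ngp fell by 2.55 ± 0.65 (SE; limma adjusted p = 0.0375) and Camp fell by 1.87 ± 0.49 (adjusted p = 0.0407). All 5 Cabozantinib tumours lay below AntiPD1 replicates 1 and 2 for both genes, but AntiPD1 replicate 3 was itself under the lowest array median, where its order against them carries no information. Ltf differed by -1.07 ± 0.32 (adjusted p = 0.0626). These 2 of the 10 genes stand beside 2.75% of all genes called lower in that comparison, and 0 of the 10 were called higher, where 2.67% of all genes were. The AntiPD1 mean rested on 2 of 3 tumours: without AntiPD1 replicate 1 the differences were -1.72 for Ngp (adjusted p = 0.156) and -1.29 for Camp (adjusted p = 0.168), and without AntiPD1 replicate 2 they were -2.19 (adjusted p = 0.184) and -1.58 (adjusted p = 0.197). Without AntiPD1 replicate 3 they were -3.75 (adjusted p = 0.000486) and -2.75 (adjusted p = 0.000938). Both calls were also lost without Placebo replicate 4, Cabozantinib replicates 1, 2 or 5 or Combination replicate 3, and that of Camp without Placebo replicate 1 or Combination replicate 1. The share of all genes called lower fell there too, to between 1.12% and 2.25%. The Cabozantinib means, 4.36 for Ngp and 4.10 for Camp, were under every array median, so the size of both falls is limited by background. A fit on these 2 groups alone gave adjusted p = 0.151 for Ngp and 0.150 for Camp, and a trended robust prior 0.0516 and 0.0547.

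In AntiPD1 against Placebo the differences of this trio were 1.77 ± 0.68 for Ngp (adjusted p = 0.194), 1.38 for Camp (adjusted p = 0.186) and 0.95 for Ltf (adjusted p = 0.169). Leaving out AntiPD1 replicate 3, the tumour with trio signals of 4.52 or less, gave 2.97, 2.25 and 1.47, and all 3 then passed the test (adjusted p = 0.0243, 0.0356 and 0.0480). Leaving out AntiPD1 replicate 1 instead gave 0.94, 0.80 and 0.48 (adjusted p = 0.489, 0.452 and 0.422), so these values rest on single tumours in both directions. In Combination against AntiPD1 the differences were -2.36 for Ngp (adjusted p = 0.286), -1.86 for Camp (adjusted p = 0.242) and -1.14 for Ltf (adjusted p = 0.296). Without AntiPD1 replicate 3 they were -3.56, -2.74 and -1.65, all called (adjusted p = 0.00147, 0.0022 and 0.0106), and without AntiPD1 replicate 1 they were -1.53, -1.28 and -0.67 (adjusted p = 0.700, 0.677 and 0.699). For cabozantinib averaged over the antibody, Ngp and Camp differed by -1.57 and -1.18 (adjusted p = 0.0894 and 0.0896). Without AntiPD1 replicate 3 these were -2.17 and -1.62 (adjusted p = 0.00110 and 0.00165), and without AntiPD1 replicate 1 they were -1.15 and -0.89 (adjusted p = 0.190 and 0.198). Of 23 other measured genes between Camp and Ltf on chromosome 9, 0 were called in AntiPD1 against Placebo, and their median difference was 0.01, with a range from -0.35 to 0.51.

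Lcn2, an iron-siderophore binding protein grouped here with the immature class, did not follow the other 3 genes of its class. It had log2 signals of 5.35, 4.88, 4.73 and 4.44 in Combination, 5.48, 6.08, 4.49, 9.09 and 4.72 in Cabozantinib, 5.64, 5.06 and 4.45 in AntiPD1, and 4.53, 4.62, 4.72 and 5.32 in Placebo. Its highest signal was in Cabozantinib replicate 4, where Ltf, Camp and Ngp were at background. It differed by 1.18 in Cabozantinib against Placebo (adjusted p = 0.513) and by 0.39 without that tumour (adjusted p = 0.697). Lcn2 had the smallest share of variance between groups of the 10 genes, 21.5%.

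**Figure D2:**
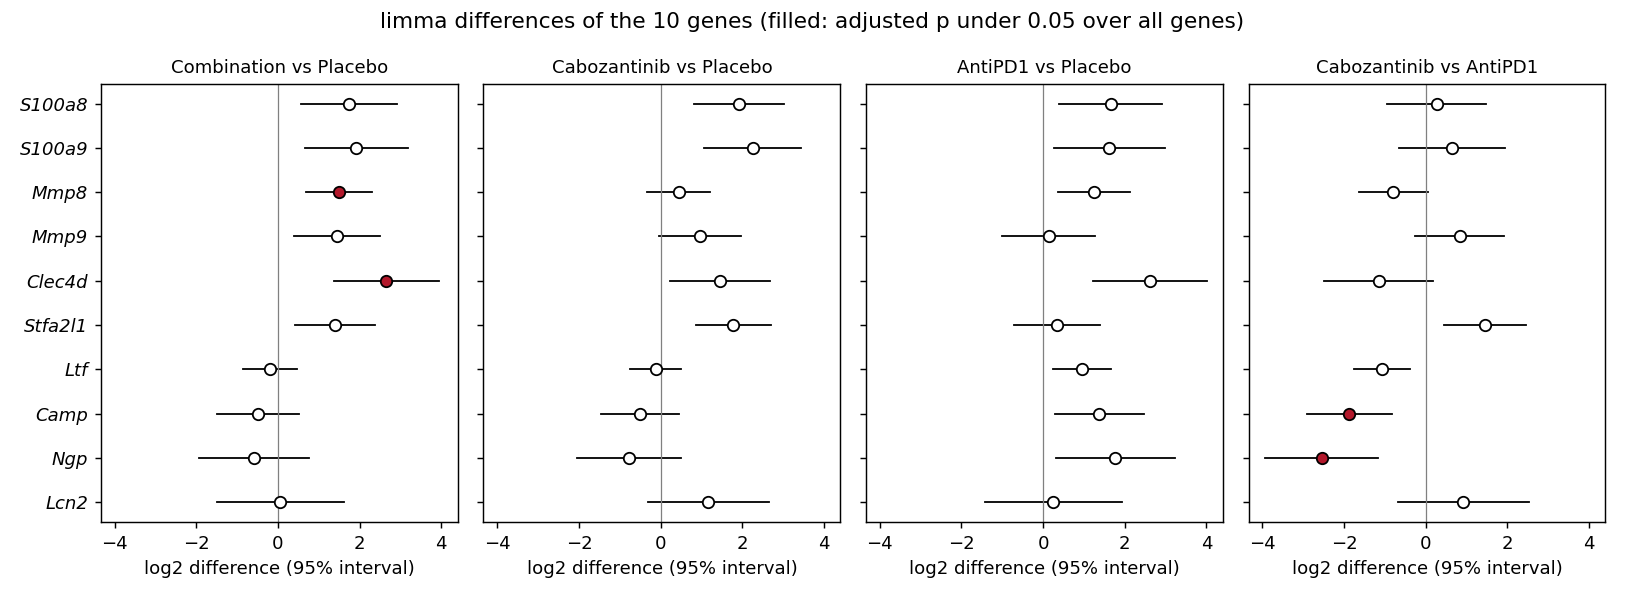
limma log2 differences of the 10 genes with 95% intervals in 4 comparisons, with filled points for an adjusted p under 0.05 over all 17097 genes. Clec4d and Mmp8 are filled in Combination against Placebo, Ngp and Camp in Cabozantinib against AntiPD1, and none in Cabozantinib or AntiPD1 against Placebo.

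Counted over the 10 genes, Combination against Placebo had 2 called higher and 0 called lower, where 3.71% of all genes were called higher and 6.64% lower. The 6 mature class genes all had positive differences, as had 45.2% of all genes, with a median of 1.62, and each had an unadjusted p under 0.05, as had 11.6% of all genes with a higher level. The 4 immature class genes had a median difference of -0.34, and their adjusted p-values were 0.538 or higher. The median of all genes was -0.02. The groups did not overlap for 3 of the 10 genes, Clec4d, S100a9 and Stfa2l1, as they did not for 7.94% of all genes in that direction. For Stfa2l1 this includes Combination replicate 4 at 4.73, which like the Placebo tumours was under the lowest array median.

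The single drugs had no called gene among the 10, with 0.111% of all genes called higher and 0.146% lower in Cabozantinib against Placebo, and 0.0175% higher and 0.0117% lower in AntiPD1 against Placebo. At an unadjusted p under 0.05, 4 of the 10 were higher in Cabozantinib against Placebo (5.91% of all genes) and 7 of the 10 in AntiPD1 against Placebo (8.42% of all genes). The mature class had 6 of 6 positive differences in each, with medians of 1.62 and 1.43, beside 50.0% and 43.2% of all genes with a positive difference. The immature class had 1 of 4 positive differences and a median of -0.31 in Cabozantinib against Placebo, and 4 of 4 and a median of 1.16 in AntiPD1 against Placebo. These comparisons share the Placebo tumours, so their values are given side by side and nothing is drawn from their likeness.

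The combined treatment was also set against each drug alone. In Combination against Cabozantinib 0 of the 10 genes were called, where 0.00585% of all genes were called higher and 0 genes lower. Mmp8 differed by 1.05 ± 0.36 (SE; adjusted p = 0.118), and by 1.53 without Combination replicate 4 (adjusted p = 0.0459). Clec4d differed by 1.20 (95% interval from -0.03 to 2.43, adjusted p = 0.230) and Lcn2 by -1.12 (adjusted p = 0.358). Of the 10, 1, Mmp8, had an unadjusted p under 0.05, as had 9.91% of all genes with a higher level. The other 7 lay between -0.39 and 0.47, with intervals for S100a8 and S100a9 from -1.30 to 0.92 and from -1.53 to 0.85. In Combination against AntiPD1 0 of 10 were called as well, where 0.00585% of all genes were called higher and 0.228% lower. Clec4d differed there by 0.05 (95% interval from -1.35 to 1.44), Mmp9 by 1.30 (0.16 to 2.44) and Stfa2l1 by 1.06 (0.01 to 2.11). The intervals are wide, so like levels are not shown.

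For the antibody averaged over cabozantinib, Clec4d rose by 1.91 ± 0.43 (SE; limma adjusted p = 0.0150) and Mmp8 by 1.15 ± 0.27 (adjusted p = 0.0167), 2 of the 10 genes, where 8.33% of all genes were called higher and 9.66% lower. Both calls held on leaving out each of the 16 tumours in turn, with adjusted p of at most 0.0490 and 0.0435. Stfa2l1 differed by -0.02 on that contrast and S100a9 by 0.64 (adjusted p = 0.311). The interaction of the drugs, which asks whether the pair departed from the sum of the single drugs, had 0 called genes among the 10 and among all 17097 (limma), with adjusted p = 0.9997 for each of the 10. At an unadjusted p under 0.05, 3 of the 10 were negative, S100a8 (-1.84), S100a9 (-1.96) and Ltf (-1.02), where 1.42% of all genes were.

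The mature class was set against the immature class in each tumour as the difference of their mean centred log2 signals, a description with no test. The difference averaged 1.05 ± 0.75 in Combination (SD, n = 4), 0.50 ± 0.38 in Cabozantinib (SD, n = 5), -0.85 ± 0.98 in AntiPD1 (SD, n = 3) and -1.03 ± 0.24 in Placebo (SD, n = 4). The 4 Placebo tumours lay between -1.30 and -0.71 and the 9 tumours given cabozantinib between -0.02 and 1.72, so these ranges did not overlap. The mature means alone did not overlap either, with -1.53 to -0.72 in Placebo and -0.50 to 1.69 with cabozantinib. The immature means did overlap, with -0.51 to 0.58 in Placebo and -0.54 to 0.66 with cabozantinib. The separation therefore lay in the mature genes, and Ltf, Camp and Ngp were near background in most of these tumours. In the mature minus immature difference AntiPD1 was split, with -1.49 and -1.34 in replicates 1 and 2 and 0.28 in replicate 3. AntiPD1 replicate 1 had a mature mean of 0.58 and an immature mean of 2.07, and Combination replicate 1 had 1.27 and -0.45. Cabozantinib replicate 4 was high in both classes, with the highest mature mean of the 16 tumours, 1.69, and the third highest immature mean, 0.66. Lcn2 was the only gene of the immature class above the lowest array median in that tumour.

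**Figure D3:**
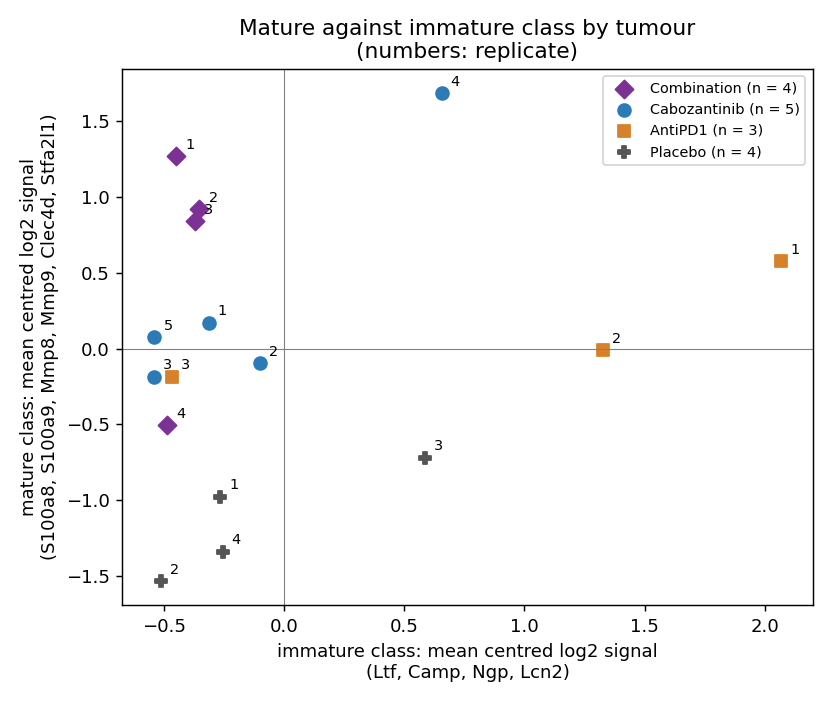
Mean centred log2 signal of the mature class (y axis, 6 genes) against that of the immature class (x axis, 4 genes), 1 point per tumour numbered by replicate, with colour and shape for the group. AntiPD1 replicates 1 and 2 lie far to the right, Placebo replicate 3 lies to the right of the other Placebo tumours, and Combination replicates 1 to 3 lie at the top left.

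Across the 16 tumours the correlations of the 10 genes largely followed the class labels, except for Lcn2. After removal of the group means the mature pairs stood less apart from the mixed pairs. The median r went from 0.65 to 0.433 over the 15 mature pairs and from 0.135 to 0.219 over the 24 mixed pairs. Over the 6 immature pairs it went from 0.495 to 0.582. These correlations share the arrays and the group differences and are given as descriptions without p-values. S100a8 and S100a9 had Pearson r = 0.990 and Spearman rho = 0.941, and r = 0.990 after removal of the group means. Camp and Ngp had r = 0.984 and rho = 0.679, and Ltf had r = 0.957 with Camp and 0.955 with Ngp. Without AntiPD1 replicates 1 and 2 the 3 values were 0.902, 0.803 and 0.755. Most tumours were near background for the trio, where order carries little information. Lcn2 had r = 0.04, 0.03 and -0.04 with Ltf, Camp and Ngp, but 0.762 with Stfa2l1, 0.712 with S100a9 and 0.675 with S100a8. Its r with Stfa2l1 was 0.374 without the 2 tumours farthest from the Stfa2l1 median, Cabozantinib replicate 4 and Combination replicate 1.

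**Figure D4:**
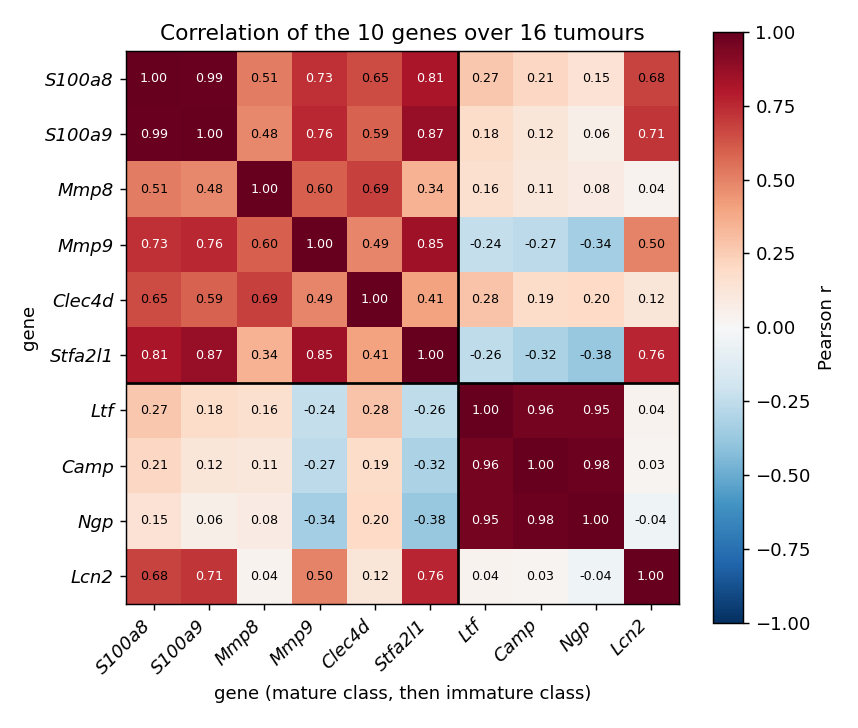
Pearson r over the 16 tumours for each pair of the 10 genes, ordered by class with a line between the mature and the immature class. The 15 pairs of mature genes have a median r of 0.65, the 24 mixed pairs a median of 0.135, and Lcn2 stands apart from Ltf, Camp and Ngp.

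The genes most like 3 of the 10 were listed as the 5 other genes with the highest Pearson r over the 16 tumours. For S100a8 they were Tnfsf14 (r = 0.896), the neutrophil chemoattractant Cxcl2 (0.880), the retroviral-like protease Asprv1 (0.849), Ankrd33b (0.817) and the NF-kappa-B inhibitor Nfkbia (0.810). Without Cabozantinib replicate 4 and Placebo replicate 4 these r values were between 0.697 and 0.82. Tnfsf14 lay between 4.12 and 5.13, near the lowest array median, where order carries little information. Cxcl2 had log2 signals of 10.44, 9.71, 9.81 and 8.81 in Combination, 9.46, 9.34, 8.87, 11.49 and 9.02 in Cabozantinib, 10.65, 8.41 and 9.76 in AntiPD1, and 8.38, 7.59, 8.56 and 7.77 in Placebo. Like S100a8, it was highest in Cabozantinib replicate 4. For Mmp8 they were Spsb4 (0.905), the lymphocyte adaptor Sit1 (0.850), the lysosomal enzyme gene Hgsnat (0.835), Mocs2 and Fam126a (0.833 each). Without Combination replicates 1 and 2 these r values were between 0.637 and 0.873. Spsb4 lay between 4.20 and 5.28, also near the lowest array median.

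The genes most like Camp were of another kind. They were Gm12758 (r = 0.925), Myct1 (0.909), Prnd (0.892), Robo4 (0.892) and Rasip1 (0.882), of which Myct1, Robo4 and Rasip1 are known from vascular endothelium. Without AntiPD1 replicates 1 and 2 these r values were between 0.569 and 0.780. These genes were chosen for following Camp over the same tumours, so their differences between groups follow from the choice and are not tested. Whether the vessel genes and the granule genes have a common source was not tested.

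**Figure D5:**
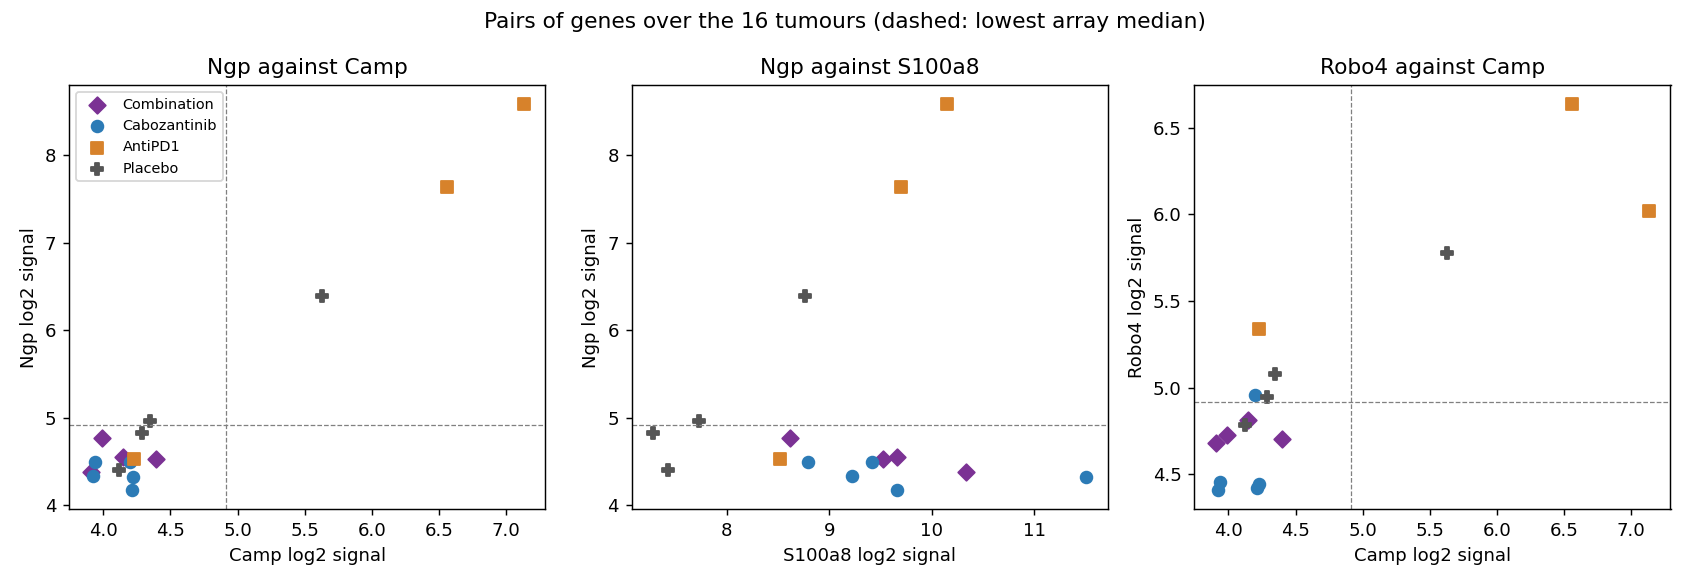
Log2 signals of Ngp against Camp, Ngp against S100a8 and Robo4 against Camp in the 16 tumours, with colour and shape for the group and dashed lines at the lowest array median, 4.92. AntiPD1 replicates 1 and 2 and Placebo replicate 3 lie above the lines for Ngp and Camp, and Cabozantinib replicate 4 has the highest S100a8 with Ngp under the line.

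Other genes of the neutrophil programme were counted from lists, to be read against the shares of all genes called higher: 3.71% in Combination against Placebo and 8.33% for the antibody averaged over cabozantinib. Of 5 measured azurophil granule genes, the earliest granule class, 0 were called in any pairwise comparison, and their median difference in AntiPD1 against Placebo was 0.01. The group means of Mpo (myeloperoxidase), Elane, Ctsg and Ms4a3 were under the lowest array median in every group, where order carries no information. Those of Prtn3 lay near it, between 4.74 and 5.01. Among 5 other specific granule and secretory genes, 2 rose in Combination against Placebo: Chil3, a chitinase-like lectin of neutrophils and alternatively activated macrophages, by 3.40 ± 0.91 (SE; limma adjusted p = 0.0360), and the haemoglobin-binding protein Hp by 1.97 ± 0.58 (adjusted p = 0.0459). Among 15 genes of mature neutrophils 2 rose in that comparison, the G-CSF receptor Csf3r by 1.34 ± 0.28 (adjusted p = 0.0187) and Wfdc21 by 2.03 ± 0.47 (adjusted p = 0.0232), and 14 of 15 had positive differences, against 45.2% of all genes, with a median of 0.76. At an unadjusted p under 0.05, 4 of these 15 were higher and 1, Padi4, was lower, where 11.6% and 17.5% of all genes were. Of the 15, 3 had a mean under the lowest array median in Combination and 5 in Placebo. In the secretory list, Cd177 and Olfm4 had means under it in every group. In that list 3 of 5 genes had positive differences in Combination against Placebo. Neither the secretory list nor the mature neutrophil list had a called gene in Cabozantinib or AntiPD1 against Placebo.

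Of 5 transcription factors of granulopoiesis, Cebpd rose in Combination against Placebo (1.24 ± 0.27, SE; limma adjusted p = 0.0194), and 4 of 5, Cebpa, Cebpb, Cebpd and Spi1, rose for the antibody averaged over cabozantinib. Spi1, which encodes PU.1, rose by 1.20 ± 0.31 on that contrast (adjusted p = 0.0216). Of 5 receptors of calprotectin and lipocalin 2, Cd36 and Tlr4 rose in Combination against Placebo, by 2.02 ± 0.54 (adjusted p = 0.0355) and 0.45 ± 0.13 (adjusted p = 0.0395), and Bsg, basigin, fell for the antibody averaged over cabozantinib, by 0.20 ± 0.04 (adjusted p = 0.0122). Cd36, Hp and Cebpa are also genes of fat cells, and 3 measured adipocyte markers, Adipoq, Fabp4 and Retn, had mean log2 signals of 7.73 to 11.06 in Combination, 5.80 to 11.56 in Cabozantinib, 6.66 to 8.54 in AntiPD1 and 6.33 to 7.69 in Placebo. Their median difference in Combination against Placebo was 2.71, with 0 of 3 called and 2 of 3 at an unadjusted p under 0.05, and their part in the Cd36, Hp and Cebpa values was not tested. Of 4 genes working with Clec4d, 0 were called pairwise, but the shared signalling chain Fcer1g and the kinase Syk rose for the antibody averaged over cabozantinib, by 1.06 ± 0.30 and 0.98 ± 0.25 (adjusted p = 0.0276 and 0.0217). All 4 measured NADPH oxidase genes rose on the same contrast, where 8.33% of all genes did, by 0.93 to 1.31, with 0 called pairwise. Their mean log2 signals were 10.37 in Combination, 9.13 in Cabozantinib, 10.27 in AntiPD1 and 9.29 in Placebo, to be read beside the macrophage markers below. Of 9 metalloproteinase relatives and inhibitors, the macrophage elastase Mmp12 rose in Combination against Placebo by 1.12 ± 0.27 (adjusted p = 0.0274). The 11 other S100 genes had 0 pairwise calls and a median difference of 0.02 in Combination against Placebo. Stfa3, the only other stefin measured, differed by -0.11 in that comparison. Its mean was under the lowest array median in every group, where order carries no information. The 5 recruitment genes had 0 pairwise calls.

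Markers of other cells that can express these genes are given beside them. Of 7 measured monocyte and macrophage markers, 6 rose for the antibody averaged over cabozantinib, where 8.33% of all genes did, the contrast in which Clec4d and Mmp8 rose, with a median difference of 1.25. Their mean log2 signal was 9.85 ± 0.18 in Combination (SD, n = 4), 8.61 ± 0.87 in Cabozantinib (SD, n = 5), 9.93 ± 0.30 in AntiPD1 (SD, n = 3) and 8.81 ± 0.57 in Placebo (SD, n = 4). All Combination and AntiPD1 tumours, between 9.67 and 10.25, lay above all Cabozantinib and Placebo tumours, between 7.35 and 9.54. In Cabozantinib against Placebo these markers had a median difference of -0.31 (0 of 7 called). Their tumour means ran from 7.35 to 9.54 in Cabozantinib and from 8.03 to 9.25 in Placebo. Cabozantinib replicate 4, the tumour highest in S100a8 and S100a9, had 9.24. S100a8, S100a9 and Stfa2l1 were above Placebo in 5 of 5 Cabozantinib tumours, where 1.97% of all genes had groups that did not overlap in that direction. The part of monocytes and macrophages in the Clec4d, Mmp8, S100a8, S100a9 and Stfa2l1 values was not tested. Nor was it tested for the NADPH oxidase genes, Fcer1g, Syk and the transcription factors above. Keratinocyte markers had mean signals of 4.40 in Combination, 4.50 in Cabozantinib, 4.38 in AntiPD1 and 4.45 in Placebo, with 5 of 6 under the lowest array median in every group. Of 3 osteoclast markers, set beside Mmp9, Acp5 and Ctsk differed by 0.60 and 1.91 in Combination against Placebo (adjusted p = 0.0674 and 0.0921) and Ocstamp fell by 0.46 (adjusted p = 0.0361). Their mean signals were 9.76 in Combination, 9.24 in Cabozantinib, 9.60 in AntiPD1 and 9.08 in Placebo. Of 6 hepatocyte markers, set beside Lcn2, 0 had a positive difference in Combination against Placebo, and 1, Alb, fell, by 0.22 (adjusted p = 0.0361). Their mean signals were 9.24 in Combination, 9.95 in Cabozantinib, 9.68 in AntiPD1 and 9.95 in Placebo, with 9.51 in Cabozantinib replicate 4, the tumour highest in Lcn2. The part of these cells in the Mmp9 and Lcn2 values was not tested. Nor was the part of hepatocytes or of the implanted tumour cells in the Hp and Cebpa values. The muscle-rich tumours included the highest S100a8 and S100a9 of the series (Cabozantinib replicate 4) and the lowest of the Combination group (Combination replicate 4). Without these and AntiPD1 replicate 2, 6 of the 10 genes were called higher in Combination against Placebo, where 2.77% of all genes were, and Camp and Ngp were no longer called in Cabozantinib against AntiPD1 (adjusted p = 0.202 and 0.197).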

How the data were processed

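Fresh-frozen tumours gave 50 ng of total RNA each for 1 Affymetrix mouse array, per the labels' protocols. The authors deposited log2 probe set signals. The submitters' processing notes name RMA and affy 1.62.0. No filter, batch or genome build is given in the sources used here. RMA, as usually run, summarises probes after quantile normalisation, which can compress differences near background. The table held 45141 probe sets, of which 28898 were paired with 1 gene, giving 17097 genes. limma 3.58.1 in R 4.3.3 fitted 4 group means (residual and prior degrees of freedom 12 and 2.47). The genes and lists were chosen with earlier results of these data known, so no p-value is given for a list or class. Named genes were the 10 members, up to 4 per list and comparison by moderated t, the markers, and the 5 most alike. Alternatives were array weights, another prior, quantile normalisation, a filter on dim genes, other probe set rules, a muscle covariate, fewer tumours, a two-sided exact permutation test and, added after seeing the data, a random block for tumours whose titles share a number. The labels do not say that each tumour came from its own mouse, so p-values measure the spread between these samples.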

Additional observations from a re-analysis of the deposited data

Results flagged for a closer look

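A sample was flagged where its gap to the nearest other tumour of a group of 4 or 5 passed Dixon's critical value. Of 30 gene and group pairs tested, 3 were flagged, and 1.5 would be by chance. S100a9 was 8.54 in Placebo replicate 3, with the other Placebo tumours between 7.18 and 7.40. Camp was 5.63 in the same tumour, with the others between 4.12 and 4.35. Stfa2l1 was 7.71 in Cabozantinib replicate 4, with the other Cabozantinib tumours between 5.06 and 5.79. AntiPD1, with 3 tumours, was too small to be tested in this way.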

How the results depend on the processing

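With array weights, which gave AntiPD1 replicate 1 a weight of 3.23, the genes called of the 10 were 6 higher in Combination against Placebo (7.12% of all genes), 7 higher in AntiPD1 against Placebo (5.11%), 3 lower in Combination against AntiPD1 (0.690%), 1 higher and 3 lower in Cabozantinib against AntiPD1 (8.91% and 7.84%), 2 higher and 2 lower for cabozantinib averaged over the antibody (1.99% and 2.28%), and 6 higher for the antibody averaged over cabozantinib (12.3%). Array weights also raised the calls over all genes, to 873 higher in AntiPD1 against Placebo beside 3 with equal weights. Without the 3 tumours high in muscle genes, 6 were higher in Combination against Placebo (2.77% of all genes) and 1 in Cabozantinib against Placebo (0.105%). In the same fit 1 was higher in Combination against Cabozantinib (0.123%) and 2 for cabozantinib averaged (0.708%), and 0 were lower in Cabozantinib against AntiPD1 (0.766%). With dim genes left out, 5 were higher in Combination against Placebo, where 7.57% of the genes kept were. In Cabozantinib against AntiPD1 1 was lower (4.85% of the genes kept), since Camp itself was left out. With only the groups compared, those counts were 4 and 0 (5.65% and 0.462% of all genes), and with a trended robust prior 2 and 0 (3.60% and 2.58%). The main fit called 3.71% and 2.75% of all genes there. The mature minus immature difference of Cabozantinib against Placebo was 1.90 with medians over members. Where no cause is named, the cause was not tested.

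Signs turned for small differences, none of them called. With array weights S100a8 was 0.076 in Combination against Cabozantinib, -0.16 in Combination against AntiPD1 and -0.24 in Cabozantinib against AntiPD1, and Stfa2l1 0.21 for the antibody averaged. Without the muscle-rich tumours S100a8, S100a9 and Stfa2l1 were 0.56, 0.46 and 0.33 in Combination against Cabozantinib, S100a8 -0.060 in Cabozantinib against AntiPD1, the Mmp8 interaction 0.0012, and Stfa2l1 and Lcn2 0.41 and 0.021 for the antibody averaged. With the muscle covariate Lcn2 was -0.089 in Combination against Placebo and Camp -0.0098 in Combination against Cabozantinib.

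On leaving out each tumour in turn, the counts ranged from 0 to 6 higher in Combination against Placebo, 0 to 3 higher in AntiPD1 against Placebo, 0 to 1 higher in Combination against Cabozantinib, 0 to 3 lower in Combination against AntiPD1, 0 to 1 higher and 0 to 3 lower in Cabozantinib against AntiPD1, 0 to 2 higher and 0 to 3 lower for cabozantinib averaged, and 2 to 5 higher for the antibody averaged. The 6 calls in Combination against Placebo came without Cabozantinib replicate 4 or Combination replicate 4, and the counts of 0 without Placebo replicates 2 or 4 or Combination replicate 2. In Combination against Cabozantinib the ranges were -0.084 to 0.080 for Camp, -0.13 to 0.018 for Ltf, -0.45 to 0.26 for S100a8, -0.64 to 0.15 for S100a9 and -0.64 to 0.065 for Stfa2l1. In Combination against AntiPD1 they were -0.21 to 0.41 for Clec4d, -0.50 to 0.10 for Lcn2, -0.058 to 0.73 for Mmp8, -0.39 to 0.42 for S100a8 and -0.16 to 0.72 for S100a9. Lcn2 ranged from -0.044 to 0.55 in AntiPD1 against Placebo and from -0.11 to 0.23 in Combination against Placebo, and Ltf from -0.28 to 0.073 in Cabozantinib against Placebo and from -0.34 to 0.0070 in Combination against Placebo. S100a8 ranged from -0.20 to 0.61 in Cabozantinib against AntiPD1, the Mmp8 interaction from -0.51 to 0.28, and Stfa2l1 from -0.15 to 0.20 for the antibody averaged. The replicate numbers are in deposit order and pair no tumours. The sample titles carry 12 numbers of unstated meaning, of which 4 are shared by 2 tumours each, 1 of these within Cabozantinib. A random replicate block on them, added after seeing the data, had a consensus correlation of -0.10 and changed no call of the 10 genes, with 2 called higher in Combination against Placebo and 2 lower in Cabozantinib against AntiPD1.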
